A study of Rattus norvegicus with 6 samples.

Results

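The vasohibins and the genes of endothelial angiogenesis were examined in colons of rats given the carcinogen azoxymethane (AOM). The 10 genes asked for were the vasohibins Vash1 and Vash2, the growth factor Vegfa with its receptors Flt1 and Kdr, the angiopoietins Angpt1 and Angpt2 with their receptor Tek, and the endothelial cell surface genes Pecam1 and Cdh5. A gene entered through every array probe whose transcript accession belongs to it and that 3 or more arrays read well above background. By this rule 8 genes had a probe, and the probe of Vash2 was named through the gene table of the study, so that 9 genes with 12 probes were measured among 15169 named genes on an array of 30367 probes. Vegfa had 4 probes and the other 8 genes had 1 each. No probe was matched to Vash1, which was not analysed here. All 12 probes were well above background on all 6 arrays. Each of the 9 genes with a matched probe kept at least 1 past the filter on low signals. Any further probes of these genes that the filter removed were not counted. The genes were chosen by the log2 difference between the strains in these same samples, in particular the higher signal of Vash2, so their strain differences are given as a description and without a p-value.

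The S.LEW congenic group held 3 male rats of the strain S.LEW(10)x12x2x3x5 (C1, C2 and C3), which carries a segment of Lewis chromosome 10 on the genome of the Dahl salt-sensitive rat. The S group held 3 male Dahl salt-sensitive rats (SS/Jr; S1, S2 and S3). All 6 rats were on a diet of 0.3% NaCl, received AOM at 15 mg/kg body weight in 2 weekly intraperitoneal injections from 6 weeks of age, and were 30 weeks old when the colon was taken; no rat without AOM was among the samples. RNA of each colon was read on 1 array in 1 color (Cy3), and the labels do not say how much of a sample was tumor.

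Vasohibins are secreted and cytoplasmic enzymes that, bound to the small protein Svbp, remove the terminal tyrosine from alpha-tubulin. Vash1 is made by endothelial cells and restrains the growth of vessels, whereas Vash2 is made mainly by other cells, tumor cells among them, and favors it. Vegfa drives endothelial cells to divide and sprout through Kdr, while Flt1 binds it tightly and acts in part as a decoy. Angpt1, made by cells around the vessel, activates Tek on endothelial cells and steadies the vessel, and Angpt2, made by the endothelial cells, mostly opposes it. Pecam1 and Cdh5 are adhesion molecules at the junctions between endothelial cells, and Pecam1 is also on platelets and leukocytes.

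Several features of the arrays touch the results. The median spot intensity ran from 214 to 594 and 73.8% to 87.6% of the spots were well above background, with no saturated spot. The array of S2 correlated more closely with the congenic arrays (0.967 to 0.976 across probes) than with S1 (0.900) or S3 (0.936). The index of a list is the mean over its genes of the log2 signal less the mean of that gene over the 6 rats, so that 0 is the average rat. The index of the 4 lymphoid marker genes that could be tested was 3.06 in S1 and 2.98 in S3 but −1.37 in S2, where the congenic rats lay between −1.67 and −1.46. These genes are 4 of a list of 10, since Cd2, Cd3e, Cd79a, Cd79b, Cr2 and Ms4a1 had no matched probe or were well above background on fewer than 3 arrays. By the scan start given in the file headers, C1 and all 3 S rats formed scan batch 1 and C2 and C3 the other, so that within scan batch 1 the congenic strain is C1 only. The labels name no slide, and that a scan batch is a slide was inferred. For 3 rats against 3, the smallest p of an exact two-sided permutation test of a gene is 0.10.

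The sequence upstream of Vash2 and that of Kdr are shown because Vash2 had the largest strain difference of the 9 genes and Kdr, an endothelial receptor, differed little. Each is the run of 200 bases just outside the annotated gene, from RefSeq on the rat assembly GRCr8, written 5′ to 3′ on the strand of the gene. Capitals mark matches to CCGGAA, the core that ETS factors bind, and to GCGTG, a core bound by bHLH-PAS factors, each searched on both strands along with ACGTG and TATAAA. Vash2 lies on chromosome 13 (chr13:105092326-105092525, minus strand) and Kdr on chromosome 14 (chr14:32571813-32572012, plus strand), so neither is on the chromosome from which the congenic strain takes its name.
Vash2: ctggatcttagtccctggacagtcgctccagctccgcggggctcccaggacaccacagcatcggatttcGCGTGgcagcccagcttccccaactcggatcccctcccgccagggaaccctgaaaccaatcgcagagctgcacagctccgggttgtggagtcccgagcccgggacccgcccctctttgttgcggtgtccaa
Kdr: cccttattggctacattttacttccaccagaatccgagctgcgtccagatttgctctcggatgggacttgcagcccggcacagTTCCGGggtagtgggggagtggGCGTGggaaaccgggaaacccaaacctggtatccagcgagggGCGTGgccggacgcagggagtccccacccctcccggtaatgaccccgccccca
Both windows were rich in G and C, at 65% with 14 CpG for Vash2 and 63% with 13 CpG for Kdr, where the median of 33469 promoter windows of the same length was 51% with 4 CpG. The window of Vash2 held GCGTG, which 21.2% of all windows hold, and none of the letters CCGGAA (8.72% of windows), ACGTG (13.2%) or TATAAA (9.98%). The window of Kdr held both CCGGAA, read from the other strand, and GCGTG. These matches describe the letters of the windows and no more.

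Vash2 was the gene with the clearest separation of the strains. Its log2 signal was 8.08 (C1), 7.60 (C2) and 7.37 (C3) in the congenic rats, against 5.24 (S1), 5.18 (S2) and 4.56 (S3). Every congenic rat lay more than 2 log2 units above every S rat, S2 included. The mean was 7.68 ± 0.36 (SD, n = 3) in S.LEW congenic rats and 4.99 ± 0.38 (SD, n = 3) in S rats. The difference was 2.69 on the log2 scale (standard error 0.28), a 6.46-fold higher signal in the congenic strain. In a bulk RNA sample, fewer cells that make a transcript and less of it per cell cannot be told apart. With the scan batch as a block, and equally within scan batch 1, the difference was 3.09. Without S1 and S3, the rats of high lymphoid index, it was 2.50. The probe was dim in the S rats, with spot intensities of 30.9 to 69.8 before normalization against 125 to 242 in the congenic rats. Adding an offset of 50 after normexp background correction, which compresses low signals, brought the difference down to 1.40.

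**Figure D1:**
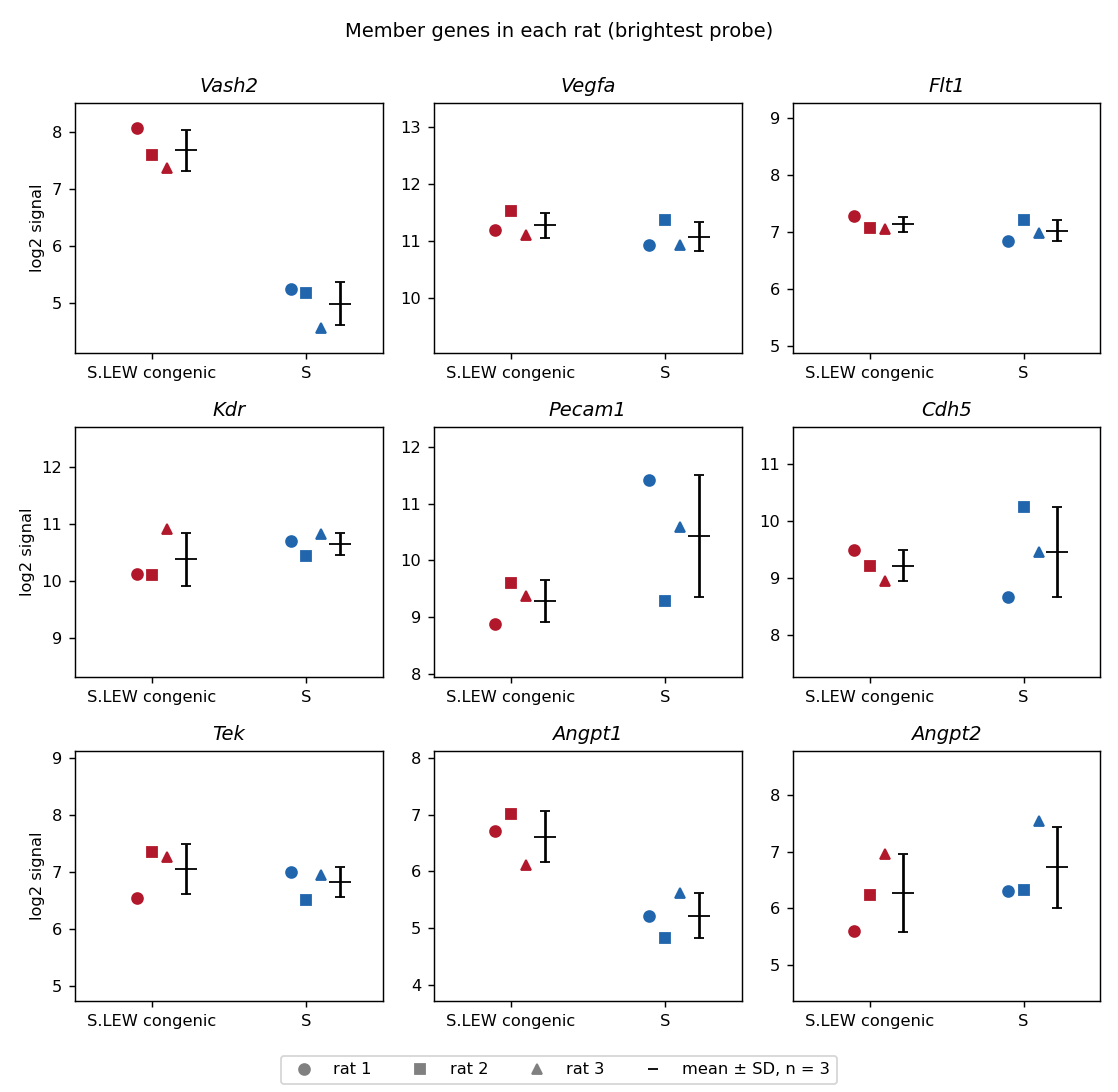
Log2 signal (y axis, quantile-normalized, each panel with its own range, not starting at 0) of the 9 measured genes in each of 3 S.LEW congenic rats (red) and 3 S rats (blue), by the brightest probe of the gene; black bars are mean ± SD (n = 3). Vash2, at 7.37 to 8.08 against 4.56 to 5.24, and Angpt1, at 6.12 to 7.00 against 4.84 to 5.63, are the only 2 panels in which the strains do not overlap.

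Whether Vash2 moved with endothelial content was asked with endothelial identity genes outside the members. Of 24 such genes, 18 had a probe that could be tested. Their index was −0.46 (C1), −0.05 (C2) and −0.12 (C3) in the congenic rats, against 0.33 (S1), −0.13 (S2) and 0.43 (S3). The index thus differed by −0.42 between the strain means, opposite in sign to Vash2, and spanned 0.89 over the 6 rats. S2 had an endothelial index within the congenic range and a Vash2 signal among the S rats. After the index was subtracted, Vash2 stood at 8.54, 7.65 and 7.49 in C1 to C3 and at 4.91, 5.32 and 4.13 in S1 to S3. That left a strain difference of 3.11 (SD 0.57 in the congenic and 0.60 in the S rats, n = 3 each). With the index as a covariate in the limma fit the difference was 2.29, and with the scan batch as a block the subtracted difference was 3.76.

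The endothelial list holds Fli1, Icam2, S1pr1 and Tal1, which blood cells also use, and the first 3 of these were high in S1 and S3, the rats with the high lymphoid index. After these values were seen, the index was computed again without the 4 genes. It was then −0.30, 0.15 and 0.07 in the congenic rats and −0.06, 0.04 and 0.10 in the S rats, a difference of −0.06, and Vash2 less this index differed by 2.75. An index of the members Cdh5, Kdr, Flt1 and Tek alone ran from −0.17 in S1 to 0.14 in S2, with −0.10, −0.04 and 0.08 in the congenic rats and 0.09 in S3. Its strain means differed by −0.04, and Vash2 less this index differed by 2.73. The member Pecam1, which is also on platelets and leukocytes, was not in this index and differed by −1.14. On each of the 3 indices the strains overlapped, and on none of them did the Vash2 signals of the strains come together. Subtracting an index could not have brought them together. Vash2 was chosen for its strain difference, with 7.37 in the lowest congenic and 5.24 in the highest S rat. The 3 indices spanned only 0.89, 0.45 and 0.30 over the rats. The part of endothelial content in the difference of Vash2 was therefore not tested by these subtractions. The indices hold only genes with a matched probe: Vwf, the von Willebrand factor of endothelial granules, had none, nor had Ecscr, Egfl7, Mmrn2, Ptprb and Robo4.

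**Figure D2:**
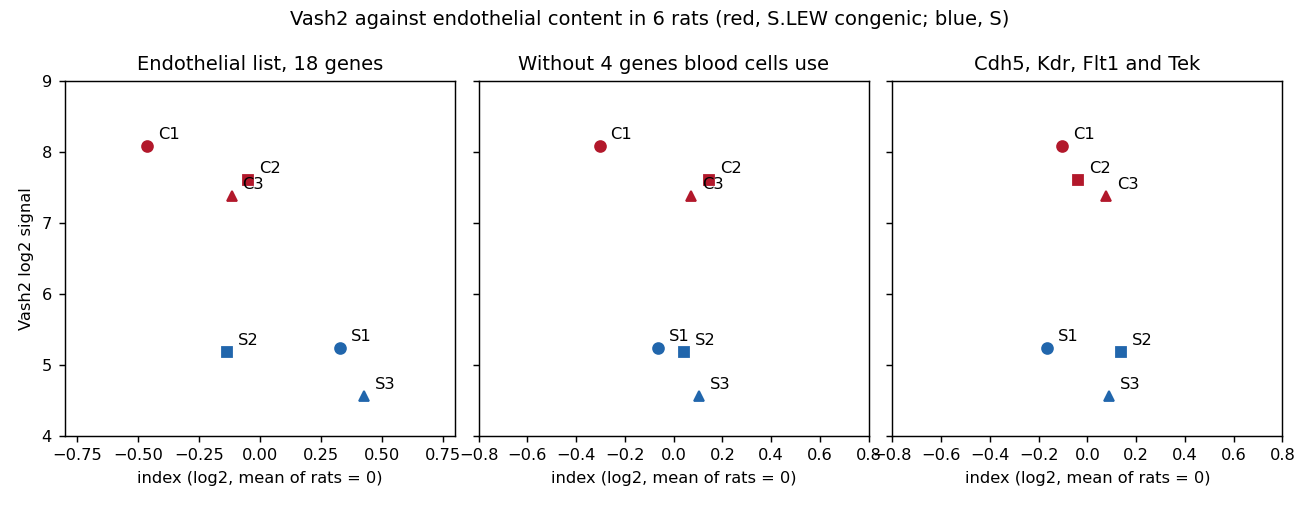
Vash2 log2 signal (y axis) against the endothelial index of each rat (x axis, log2 with the mean of rats at 0) for the list of 18 genes, for the 14 left without Fli1, Icam2, S1pr1 and Tal1, and for Cdh5, Kdr, Flt1 and Tek; red points are S.LEW congenic rats and blue points S rats, 1 point per rat. In each panel the congenic points lie at 7.37 or higher and the S points at 5.24 or lower, while the index values of the strains overlap.

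Of the angiopoietins, Angpt1 was higher in the congenic rats and Angpt2 had no clear direction. Angpt1, which activates Tek, had a log2 signal of 6.71 (C1), 7.00 (C2) and 6.12 (C3) in the congenic rats, against 5.21 (S1), 4.84 (S2) and 5.63 (S3). The lowest congenic rat, C3, was above the highest S rat, S3, but by less than the rats differed within a strain. The difference was 1.38 (standard error 0.31), a 2.61-fold higher signal in the congenic strain. It was 1.48 within scan batch 1 and 1.77 without S1 and S3. Angpt1 was dim as well, at intensities of 24.8 to 99.3, and with the offset of 50 the difference was 0.64, under a 2-fold change. Angpt2 had a log2 signal of 5.60, 6.24 and 6.97 in C1 to C3, and of 6.31, 6.32 and 7.55 in S1 to S3. These ranges overlapped, and the difference was −0.46 (standard error 0.48), smaller than its own error. Within scan batch 1 it was −1.13 and without S1 and S3 it was −0.05. Tek, the receptor of both, had 6.54, 7.34 and 7.26 in the congenic rats and 6.99, 6.51 and 6.94 in the S rats. Its difference of 0.23 (standard error 0.28) turned to −0.27 within scan batch 1, where C1 is the lowest congenic rat.

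Vegfa and its receptors differed little between the strains. The brightest Vegfa probe read 11.19, 11.52 and 11.11 in C1 to C3 and 10.93, 11.37 and 10.93 in S1 to S3, a difference of 0.20 (standard error 0.22). The second probe (A_64_P099891) read 9.19, 9.20 and 9.14 in the congenic rats and 8.16, 9.16 and 8.37 in the S rats, a difference of 0.62 (standard error 0.29). On this probe the congenic rats lay within a narrow range, S2 lay with them, and S1 and S3 were lower. The other probes of Vegfa gave differences of 0.26 (standard error 0.20) and 0.38 (standard error 0.21). All 4 differences were above 0, S2 lay in the congenic range on all 4, and without S1 and S3 that of the brightest probe was −0.09. Kdr, the main signalling receptor of Vegfa, had 10.13, 10.10 and 10.92 in the congenic rats and 10.70, 10.45 and 10.83 in the S rats. Its difference was −0.27 (standard error 0.28), with overlapping ranges, and −0.53 within scan batch 1. Flt1 had 7.29, 7.07 and 7.05 in C1 to C3 and 6.85, 7.22 and 6.99 in S1 to S3, a difference of 0.12 (standard error 0.19).

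The junction genes were the most uneven among the S rats. Pecam1 had a log2 signal of 8.89 (C1), 9.61 (C2) and 9.37 (C3) in the congenic rats, against 11.41 (S1), 9.29 (S2) and 10.60 (S3). S1 and S3, the rats of high lymphoid index, were above every congenic rat, and S2 lay among the congenic rats. The difference was −1.14 (standard error 0.54), with an SD of 0.37 in the congenic and 1.07 in the S rats (n = 3 each). It was −1.71 without S2 and −0.00 without S1 and S3, and the part of leukocytes in it was not tested. Cdh5, the cadherin of endothelial junctions, had 9.48, 9.20 and 8.94 in the congenic rats and 8.66, 10.24 and 9.45 in the S rats. Here S1 was the lowest of all rats and S2 the highest, so the pair of junction genes did not order the S rats alike. The difference of Cdh5 was −0.24 (standard error 0.41), with 0.03 within scan batch 1, 0.15 without S2 and −1.03 without S1 and S3.

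Of the 9 genes, 5 had a log2 difference above 0 and 4 below, with a median of 0.12. Of all 12398 genes tested, 6567 were above 0 and 5831 below, with a median of 0.03. At the cut-offs of the study, an unadjusted p under 0.05 with at least a 2-fold change, limma placed 2 genes higher in the congenic strain, Vash2 and Angpt1, and none lower. Over all genes tested 3.8% were placed higher and 2.63% lower, and over all probes 3.23% higher and 2.35% lower (5.58% in either direction). The strains did not overlap for the same 2 genes, congenic rats above, which held for 14.2% of all genes. The choice of the genes used this contrast, so the counts support nothing by themselves. The SD was larger in the S rats for 6 of the 9 genes, as it was for 70.8% of all probes. S2 lay within the range of the congenic rats on 8 of the 12 probes, and outside it for Vash2, Angpt1, Tek and Cdh5. All 4 Vegfa probes were among the 8, and by the brightest probe S2 lay within that range for 5 of the 9 genes. The share of all probes for which this held was not counted.

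Among the other genes of endothelial identity, named from a list, limma placed 1 of 18 lower at those cut-offs and none higher, against 6.43% of all genes in either direction. No gene of these lists had an adjusted p under 0.05, and neither had any of the 12398 genes, although 14.5% of them had an unadjusted p under 0.05. The 1 gene was S1pr1, a receptor of sphingosine phosphate on endothelial cells and lymphocytes, at 8.52, 9.12 and 9.10 in the congenic rats and 12.48, 9.21 and 11.99 in the S rats (log2 difference −2.31, standard error 0.84, adjusted p = 0.35 by limma). S1 and S3 carried the difference, which was −0.29 without them and was placed lower when S2 was left out but not when any other rat was. Fli1, an ETS factor of endothelial and blood cells, differed by −2.40 (standard error 1.05) and Icam2 by −2.05 (standard error 1.01), with the same pair of rats high. Over the list, 6 genes were above 0 and 12 below (median −0.26), beside 6567 and 5831 of all 12398 genes (median 0.03). Eng, a co-receptor of TGF-beta on endothelium, differed by −0.04, and Nos3, the endothelial nitric oxide synthase, by 0.23. Tie1, an orphan receptor that pairs with Tek, differed by −0.56, Cldn5, a tight junction protein, by −0.64 and Plvap, of the diaphragms of fenestrated vessels, by −0.63, each with overlapping strains. Erg, another ETS factor, differed by −0.40 on its brightest probe and 0.56 on the other.

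**Figure D3:**
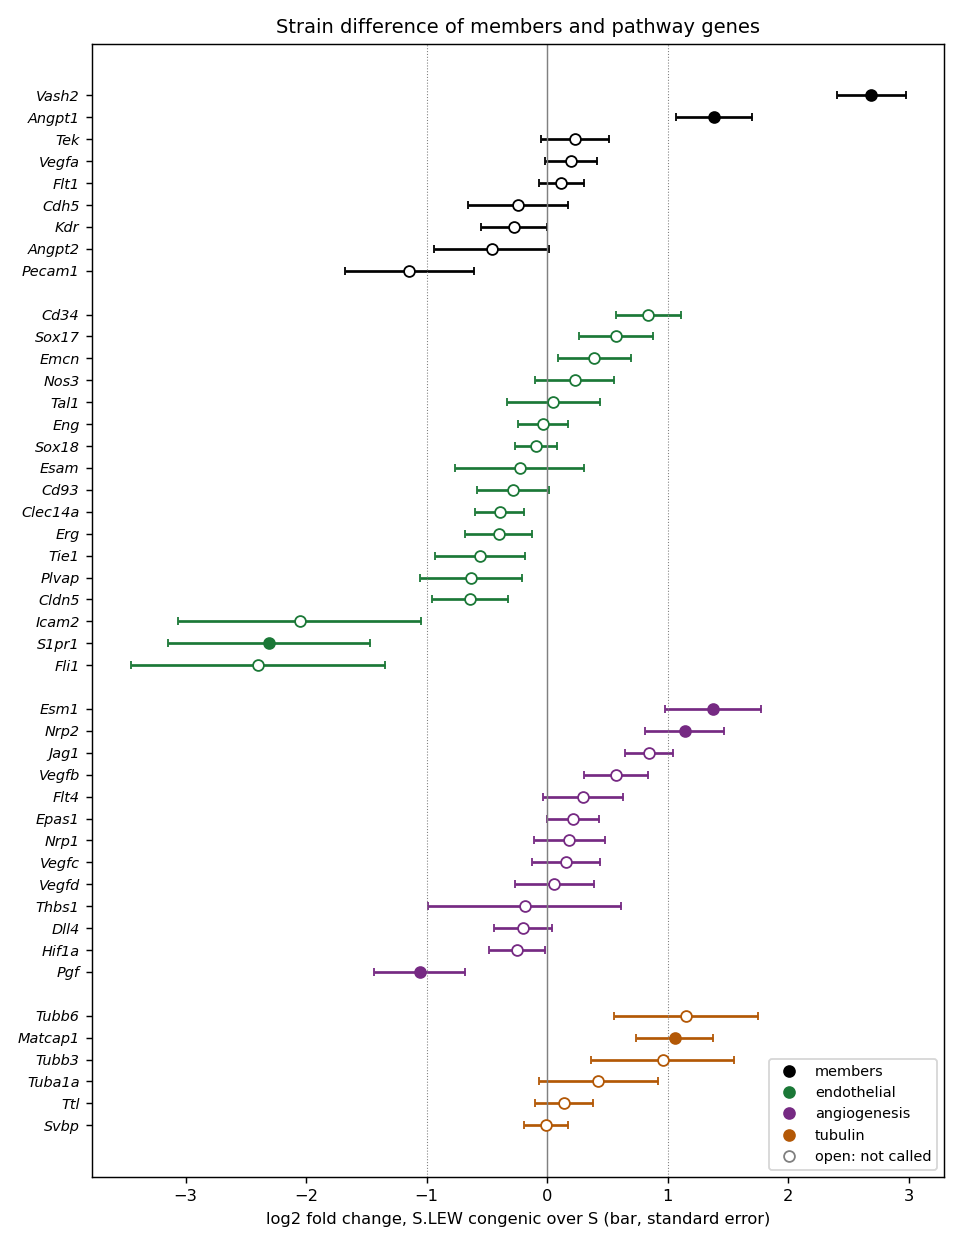
Log2 difference of S.LEW congenic over S rats (x axis; bars are the standard error from limma, 3 rats per strain) for the 9 members and for named genes of the endothelial, angiogenesis and tubulin lists (y axis); filled points passed a 2-fold change with an unadjusted p under 0.05, and dotted lines mark a 2-fold change. Vash2 at 2.69 stands furthest right, Pecam1 at −1.14 is the lowest member, and Fli1, S1pr1 and Icam2 lie furthest left.

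Of the genes of angiogenic signalling outside the members, 27 of 28 were tested, and limma placed 2 higher and 1 lower. Over all genes 3.8% were placed higher and 2.63% lower. Esm1, a proteoglycan of endothelial tip cells, had a log2 signal of 5.32, 6.13 and 5.96 in C1 to C3 and of 5.03, 3.69 and 4.56 in S1 to S3, where S2 was not well above background. The difference was 1.38 (standard error 0.40, adjusted p = 0.30 by limma), but it was 0.89 with the scan batch as a block, which no longer passed. Nrp2, a co-receptor of the Vegf and semaphorin families, had 5.90, 5.85 and 6.28 in the congenic rats and 4.59, 5.55 and 4.47 in the S rats. It differed by 1.14 (standard error 0.33, adjusted p = 0.30 by limma), and by 1.03 with the scan batch as a block, 0.94 without S3 and 0.46 without S1 and S3, none of which passed. Pgf, a ligand of Flt1, had 6.28, 6.89 and 6.82 in the congenic rats and 8.32, 6.98 and 7.85 in the S rats, a difference of −1.06 (standard error 0.38, adjusted p = 0.35 by limma) that was −0.75 without S1 and −0.32 without S1 and S3. Pgf no longer passed when C1, C3, S1 or S3 was left out. In Nrp2 and Pgf as in Pecam1, S2 was the S rat nearest to the congenic rats.

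The other ligands and receptors of the Vegf family did not pass by their brightest probes. Vegfb differed by 0.57 (standard error 0.26), Vegfc by 0.16, Vegfd, well above background on 2 of 3 congenic arrays, by 0.06, Nrp1 by 0.18 and Flt4, the receptor of Vegfc, by 0.30 on its brightest probe and −0.35 on the other. The hypoxia factors Hif1a and Epas1, which act upstream of Vegfa, differed by −0.25 and 0.22. Thbs1, an inhibitor of angiogenesis, differed by −0.19 (standard error 0.80), with S2 at 8.35 and the other rats between 5.31 and 6.77. Dll4, the Notch ligand of tip cells, differed by −0.20 on its brightest probe and −1.08 on a dimmer one, which passed the cut-offs as lower in the congenic strain. On that dimmer probe S1 (8.23) and S3 (7.50) lay above the other rats (5.95 to 6.69). Over the list 19 genes were above 0 and 8 below (median 0.20), beside 6567 and 5831 of all 12398 genes (median 0.03).

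Vasohibins act on tubulin, so the genes of that step and of tubulin itself were set beside Vash2. Svbp, the partner that vasohibins need, was even: 10.26, 10.18 and 10.51 in the congenic rats and 10.46, 10.29 and 10.22 in the S rats, a difference of −0.01 (standard error 0.18), with 0.14 on its other probe. Ttl, the ligase that puts the tyrosine back, differed by 0.14 (standard error 0.24). Of 19 genes tested limma placed 1 higher and none lower, beside 6.43% of all genes in either direction. That gene was Matcap1, a protease outside the vasohibin family that removes the same tyrosine. It had 7.52, 7.35 and 7.63 in C1 to C3 and 6.00, 7.12 and 6.21 in S1 to S3, a difference of 1.06 (standard error 0.32, adjusted p = 0.32 by limma), with S2 close under the congenic rats. It was 0.38 without S1 and S3, and the call was lost when C3, S1 or S3 was left out. Over the list 15 genes were above 0 and 4 below (median 0.14), beside 6567 and 5831 of all 12398 genes (median 0.03). S2 lay in the congenic range for 10 of the 19, which was not so for Vash2.

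Cells that surround vessels and the other cell types of the colon wall varied between the rats too. Of 8 pericyte markers limma placed 1 higher, beside 3.8% of all genes. It was Rgs5, a regulator of G protein signalling in pericytes and vascular muscle. Its log2 signal was 12.69, 12.47 and 13.48 in the congenic rats and 10.42, 11.42 and 10.33 in the S rats, a difference of 2.16 (standard error 0.40, adjusted p = 0.21 by limma), and it was 1.46 without S1 and S3. The other pericyte markers Cspg4 and Mcam differed by 1.30 and 1.06, with S2 beside the congenic rats, and Pdgfrb by −0.14. The pericyte index was 0.19, 0.45 and 0.56 in C1 to C3 and −1.07, 0.36 and −0.49 in S1 to S3, and the smooth muscle index had the same shape, at 0.41, 0.43 and 0.64 against −1.61, 0.74 and −0.61. On both indices S2 was close to the congenic rats. Its Angpt1 signal was the lowest of all 6. The part of these cells in the strain difference of Angpt1 was not tested.

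Among the remaining lists, limma placed 4 of 4 lymphoid markers lower (median −2.87), 1 of 4 lymphatic markers lower, which was Ccl21, 2 of 6 striated muscle markers lower and none of 8 fibroblast and 7 neuronal and glial markers. Of 8 macrophage markers 2 were higher and 1 lower, of 7 adipocyte markers 2 were higher, of 8 smooth muscle markers 1 was higher, and of 8 epithelial markers 2 were higher. All 8 epithelial markers were above 0 (median 0.85). So were all 7 adipocyte (median 0.92), all 8 smooth muscle (median 0.95) and all 8 fibroblast markers (median 0.39), and 7 of 8 pericyte markers (median 0.76). Over all genes 3.8% were placed higher and 2.63% lower. Among these lists of cell markers, the adipocyte and the epithelial index were the ones in which, as for Vash2, all 3 congenic rats lay above all 3 S rats. The lymphoid index was the one in which all 3 lay below, but S2 (−1.37) was close to the congenic rats (−1.67 to −1.46), far from S1 and S3. S2 lay in the congenic range for 3 of the 4 lymphoid genes, and the strains did not overlap for only 1 of them, beside 19.2% of all genes. The epithelial index was 0.65, 0.55 and 0.03 in the congenic rats and −0.62, −0.21 and −0.41 in the S rats, and the adipocyte index was 0.01, 0.69 and 0.995 against −0.37, −0.69 and −0.64. The part of either in the difference of Vash2 was not tested.

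**Figure D4:**
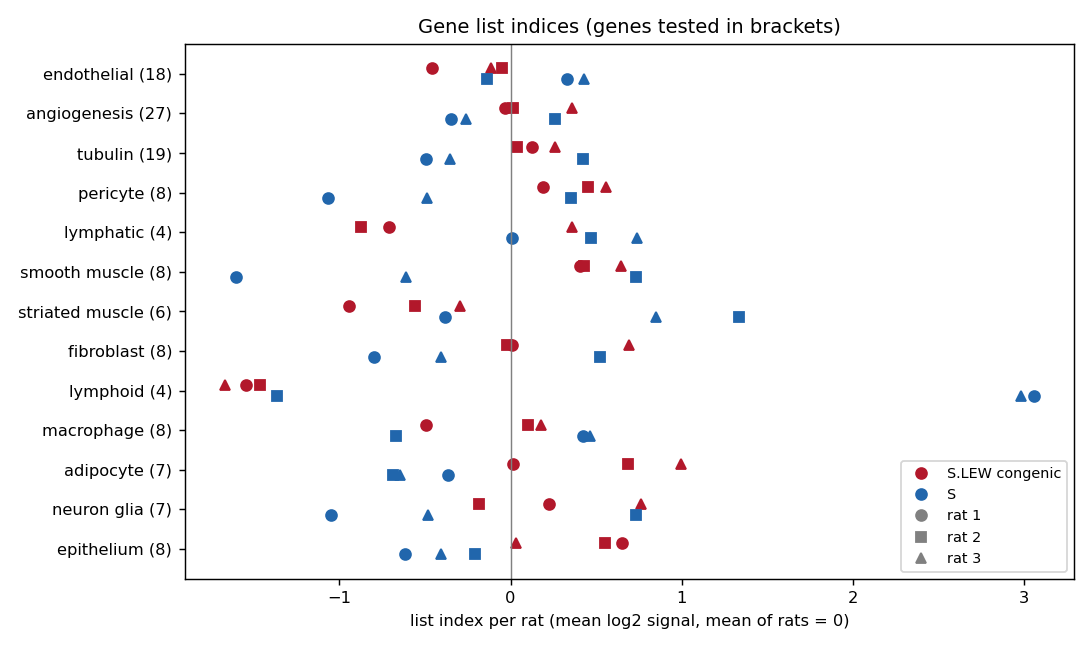
Index of each gene list (y axis, with the number of genes tested) in each rat (x axis, mean log2 signal of the list with the mean of rats at 0); red points are S.LEW congenic rats, blue points S rats, and the shape gives the rat number. S1 and S3 stand apart on the lymphoid index at 3.06 and 2.98, the endothelial index runs only from −0.46 to 0.43, and on the adipocyte and epithelial indices all congenic rats lie above all S rats.

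The genes whose pattern over the 6 arrays was most like that of Vash2 were not vascular by name. Out of 12386 genes ranked, the highest Pearson correlations were those of Cox5a (0.998), a subunit of cytochrome c oxidase, Nlrp6 (0.997), an inflammasome sensor of the intestinal epithelium, Akr1b8 (0.996), an aldo-keto reductase, Gal3st1 (0.996), which makes sulfatide, and Tmlhe (0.996), of carnitine synthesis. Nlrp6 had a log2 signal of 11.88, 11.77 and 11.41 in C1 to C3 and of 9.83, 9.88 and 9.42 in S1 to S3, a difference of 1.98 (standard error 0.22, adjusted p = 0.19 by limma). Akr1b8 had 11.99, 11.54 and 11.52 in the congenic rats and 9.80, 9.80 and 9.55 in the S rats, a difference of 1.96 (standard error 0.21, adjusted p = 0.19 by limma). Cox5a differed by 0.70, Tmlhe by 0.69 and Gal3st1 by 1.06. Vash2 forms a cluster of 3 rats per strain, so such a correlation mostly restates a strain difference over the same arrays, and it is given without a p-value. Of the members, Angpt1 was nearest at 0.86, Vegfa reached 0.49, Flt1 0.48 and Tek 0.22, and Cdh5 (−0.20), Kdr (−0.55), Angpt2 (−0.56) and Pecam1 (−0.68) ran the other way.

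After the mean of each strain was subtracted, the nearest genes were others: Vom1r23 (0.997), C8h3orf62 (0.991), Prima1 (0.991), Krt87 (0.990) and Slc27a4 (0.989), the last a fatty acid transporter. Within strains the correlation with Vash2 was −0.98 for Angpt2, −0.67 for Tek, −0.66 for Kdr, −0.22 for Pecam1, −0.15 for Angpt1, 0.16 for Cdh5, 0.23 for Vegfa and 0.43 for Flt1, each over 6 arrays from which 2 means were taken. Angpt2 was lowest in C1, where Vash2 was highest, and in each strain the third rat was highest for Angpt2 and lowest for Vash2. C1 is also the only congenic rat of scan batch 1, and the share of all genes with correlations of this size was not counted.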

How the data were processed

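Colon RNA of 3 S.LEW congenic and 3 S rats, grouped by the sample titles, was hybridized to 1-color Agilent arrays. The authors extracted the images with Agilent Feature Extraction 11.0.1.1 per the labels, and the deposited scanner files hold a background-corrected intensity for each of 42877 spots. The deposited log2 table, which the authors quantile-normalized in GeneSpring and filtered for detection, holds 23997 probes. It was used as an alternative and differed from the values used here by at most 0.0044 on the member probes.

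From the scanner files, spots called non-uniform or population outliers (274 to 419 per array) were dropped, log2 intensities of the spots of a probe were averaged, and the 6 arrays were quantile-normalized. A signal is therefore relative to the other probes of its array, and levels of different probes cannot be compared. The 23974 probes that 3 or more arrays read well above background were fitted with limma 3.58.1 (lmFit and eBayes, no covariates; R 4.3.3), with Benjamini-Hochberg adjustment over all of them. A gene counts as placed higher or lower where its brightest probe has a 2-fold change and an unadjusted p under 0.05. Precision is limited by the number of arrays, and the labels describe the samples as separate rats. Arrays with the same scan start in the file headers were treated as a scan batch, probably a slide, which the labels do not name.

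Accessions were matched to RefSeq genes of GRCr8, which named 18005 probes and 15168 genes. The probe of Vash2 was named by the study's table alone, where its fold change and p-value fit 1 probe of the deposited log2 table; those columns of the authors' comparison served for naming only. The probe sequences were not used here.

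The member genes and the gene lists were chosen with earlier results of these data known. The genes named are all members, the genes of the endothelial, angiogenesis and tubulin lists past the cut-offs (up to 8 per list), a preset group of vascular and tubulin genes regardless of their values, and the 5 genes most correlated with Vash2 over arrays and within strains. Rgs5, Ccl21, Cspg4, Mcam, Pdgfrb, Fli1, Icam2, Tal1, Erg, Jag1, Cd34, Clec14a, Tubb3 and Tubb6 were named after their values were seen. Alternatives were 75th percentile scaling, the deposited log2 values, other background filters, keeping dropped spots, the methods' t-test, normexp with an offset of 50, the replicate number or scan batch as a block, the endothelial index as a covariate, the mean of all probes of a gene and leaving out each rat. Added after the data were seen were the other endothelial indices and leaving out S1 and S3. The fit was tested on simulated data. Figures were drawn with matplotlib 3.10.9.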

Additional observations from a re-analysis of the deposited data

How the results depend on the processing

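The strain difference of Vash2 kept its direction and its place past the cut-offs under every alternative run, from 1.40 with normexp and an offset of 50 to 3.09 with the scan batch as a block or within scan batch 1, and from 2.47 to 2.85 with each rat left out in turn. Vash2 relative to the endothelial index (3.11) was 1.81 with normexp, 3.76 with the scan batch as a block and 3.76 within scan batch 1, 2.29 with the index as a covariate, and 2.78 to 3.37 with each rat left out. The member genes past the cut-offs numbered 1 with normexp in place of 2, and 2 to 3 with each rat left out, Pecam1 joining without S2. The endothelial list (1 gene) gave 2 with 75th percentile scaling, 0 with the methods' t-test, with the scan batch as a block and within scan batch 1, and 0 to 5 with each rat left out, 5 being without S2. The angiogenesis list (3 genes) gave 0 with normexp, 1 with the scan batch as a block, 0 within scan batch 1, and 1 to 7 with each rat left out, 7 without S2 and 1 without S3. The tubulin list (1 gene) gave 0 with normexp, with the scan batch as a block, within scan batch 1 and with the endothelial index as a covariate, and 0 to 4 with each rat left out, 4 without S2. The cause of these changes was not tested. Rats with equal replicate numbers have nothing else in common by the labels, and their departures from the strain means correlated at −0.02, −0.13 and −0.06 over 23968 probes. With the replicate block the difference of Vash2 stayed at 2.69, the endothelial list gave 2 genes, and the probes placed higher and lower went from 775 and 563 to 791 and 743. Over all probes these counts were 514 and 172 with the methods' t-test, 359 and 380 with normexp, 692 and 760 with 75th percentile scaling, 679 and 342 with a filter on all 6 arrays, 551 and 225 with the scan batch as a block, 443 and 188 within scan batch 1, 354 and 436 with the covariate, 449 and 472 without S1 and S3, 708 and 337 without C2, 690 and 352 without C3, 570 and 329 without S1, 2399 and 1725 without S2 and 476 and 186 without S3. An adjusted p under 0.05 was reached by 1 probe with 75th percentile scaling, 41 without S1 and 5562 without S2 by limma, and by none under the other alternatives. Of the values of single genes, 820 were within the spread or on the same side of the cut-offs, 53 moved, 41 no longer passed, 14 newly passed and 0 reversed among called genes. Signal over background limits the dim probes: in its dimmest rat a probe lay above the lowest signal that counts as well above background by 1.05 log2 units for Vash2, 0.70 for Angpt1 and 0.61 for Angpt2, while Esm1 in S2 stood at −0.44 relative to it. That lowest signal was 4.40, 5.63 and 5.02 in C1 to C3 and 3.63, 4.13 and 3.41 in S1 to S3. Vash2 stood above it by 3.68, 1.97 and 2.35 in C1 to C3, and by 1.61, 1.05 and 1.14 in S1 to S3.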

Other observations

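The lymphatic marker Ccl21, a chemokine of lymphatic endothelium and of lymphoid tissue, had a log2 signal of 11.03, 10.08 and 12.09 in C1 to C3 and of 14.35, 12.59 and 14.34 in S1 to S3. The strains did not overlap, and the difference was −2.69 (standard error 0.67, adjusted p = 0.27 by limma). Without S1 and S3 it was −1.52 and no longer passed the cut-offs. The index of the 4 lymphatic genes tested was −0.71, −0.87 and 0.36 in the congenic rats and 0.01, 0.47 and 0.74 in the S rats, so that C3 lay among the S rats.

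Jag1, the Notch ligand that competes with Dll4 in sprouting vessels and is also made by epithelium, had a log2 signal of 11.17, 11.22 and 11.27 in the congenic rats and of 10.15, 10.68 and 10.30 in the S rats. The strains did not overlap although the difference of 0.84 (standard error 0.20, adjusted p = 0.27 by limma) was under a 2-fold change. Cd34, on capillary endothelium and progenitor cells, differed by 0.84 (standard error 0.27, adjusted p = 0.34 by limma), with 5.58, 5.49 and 5.82 in the congenic rats and 4.61, 5.31 and 4.45 in the S rats. Only 2 of the 3 congenic arrays were well above background for it. Its difference was the highest of the 18 endothelial genes tested, of which 12 were below 0. Beside 19.2% of all genes in either direction, the strains did not overlap for 3 of the 18. These were Cd34, and S1pr1 (−2.31) and Clec14a (−0.39 on its brightest probe), both lower in the congenic rats. Tubb6 and Tubb3, beta-tubulins of muscle and nerve, differed by 1.15 (standard error 0.60) and 0.96 (standard error 0.59) without passing the cut-offs. In both, S2 lay with the congenic rats and S1 and S3 were lower.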
